A study of Rattus norvegicus with 22 samples.

Results

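The genes Samsn1, Srgn and Rassf4, 3 of the 32545 gene identifiers that were counted, were followed through the rat cortex 24 h after a penetrating ballistic brain injury (PBBI). They were chosen by measured values of these rats. Samsn1 and Rassf4 are in the study's list of genes that differed between ipsilateral PBBI and sham cortex, Samsn1 was also picked for its contralateral difference, and Srgn comes from the study's list of genes associated with wakefulness and NREM sleep contralaterally. The comparisons that chose a gene are therefore given as values with no test. Cortical RNA came from adult male rats of the strain written Sprague-Daley in the labels, 6 with PBBI and 5 with sham surgery, and from both hemispheres of each rat, which gave 22 libraries in 4 groups. PBBI rats had a probe driven into the right frontal pole and elastic tubing on it inflated to form a cavity, whereas sham rats had the craniectomy without the probe. All rats carried EEG electrodes through the skull on both sides, so neither group is intact cortex. The ipsilateral samples are from the injured or operated side and the contralateral samples from the other side.

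Samsn1 encodes an adaptor protein with an SH3 and a SAM domain, found mainly in blood cells and known for dampening B cell receptor signaling. Srgn encodes serglycin, a proteoglycan that holds proteases, chemokines and other cargo in the secretory granules of leukocytes. Rassf4 encodes a member of the Ras association domain family, which binds active Ras proteins and shares its family with scaffolds of the Hippo kinase pathway. After brain injury the resident microglia respond and leukocytes enter from the blood, and in whole tissue more cells of a type and more RNA per cell cannot be told apart.

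The 250 bases before the annotated start of each gene are shown because these 3 genes, grouped as leukocyte genes, do not share the same letters there. All were read from RefSeq on assembly GRCr8, and all 3 genes lie on the minus strand: Samsn1 at chr11:28021945-28022194, Srgn at chr20:31000104-31000353 and Rassf4 at chr4:151604884-151605133. Capitals mark GAGGAA on either strand, the letters of a box bound by PU.1, an ETS family factor of myeloid and B cells.
Samsn1: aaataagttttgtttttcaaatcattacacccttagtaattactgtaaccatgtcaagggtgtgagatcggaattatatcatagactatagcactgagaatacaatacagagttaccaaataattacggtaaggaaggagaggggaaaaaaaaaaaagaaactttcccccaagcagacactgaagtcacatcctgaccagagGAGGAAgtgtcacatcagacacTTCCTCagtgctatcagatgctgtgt
Srgn: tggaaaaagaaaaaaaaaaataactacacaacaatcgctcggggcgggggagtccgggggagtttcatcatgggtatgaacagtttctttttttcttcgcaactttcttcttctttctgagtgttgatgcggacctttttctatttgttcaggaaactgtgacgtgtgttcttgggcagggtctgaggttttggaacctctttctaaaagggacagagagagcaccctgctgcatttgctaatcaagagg
Rassf4: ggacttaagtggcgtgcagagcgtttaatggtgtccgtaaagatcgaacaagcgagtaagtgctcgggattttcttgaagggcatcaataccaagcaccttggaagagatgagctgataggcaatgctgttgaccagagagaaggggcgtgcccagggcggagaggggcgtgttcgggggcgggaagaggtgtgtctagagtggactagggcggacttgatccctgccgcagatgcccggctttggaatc
The Samsn1 stretch held the box at 2 places, with first bases 48 and 26 bases before the start and on opposite strands. The stretches of Srgn and Rassf4 held none. Among 33469 promoters of the same length, 23.34% held GAGGAA at least once and 3.391% at 2 or more places. The letters of an AP-1 site, TGANTCA, were in none of the 3 and in 6.34% of all promoters, and those of a TATA box, TATAAA, were in none of the 3 and in 12.93%. GC content was 38.4% for Samsn1, 44% for Srgn and 56% for Rassf4, against a median of 51.2%. The letters were chosen after the sequences had been read, AP-1 and TATA letters were searched on both strands as well, and a match is no evidence of binding.

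Total counts per library were between 42085341 and 63412426. Levels are given as CPM after TMM scaling, that is, as read counts relative to library size with an adjustment for composition. The ipsilateral library of PBBI rat 85 stood apart from the other ipsilateral PBBI libraries. Its mean correlation to them was 0.835 against 0.933 to 0.943 for the rest, so some results are also given without it. The exact tests of Srgn within rats and its fits with the rat as a block were not run without rat 85. Neuron markers were present throughout, and their 5 genes summed to between 796 and 2150 CPM in every library.

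The genes differed in basal level. Per kilobase of gene length, the mean level in contralateral sham cortex was 11.4 CPM for Srgn, 4.19 CPM for Rassf4 and 0.308 CPM for Samsn1. In ipsilateral PBBI cortex the order was the same, with 22.7, 15.4 and 2.98 CPM per kilobase. Samsn1 is thus the scarcest of the 3 genes, and its lowest libraries rest on few reads, 15 to 34 counts in contralateral sham cortex and 17 to 67 in ipsilateral sham cortex.

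**Figure D1:**
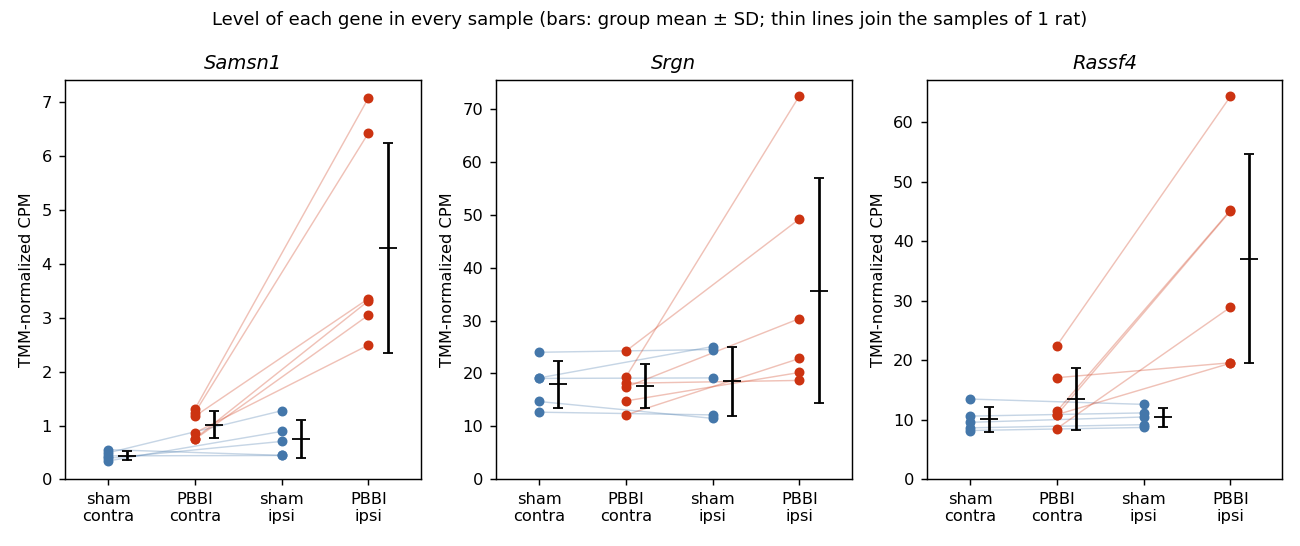
TMM-normalized CPM (linear axis, a separate scale for each gene) of Samsn1, Srgn and Rassf4 in every library of the 4 groups, with group mean ± SD as bars and thin lines joining both hemispheres of a rat. Samsn1 in PBBI rats lies above sham on both sides, Rassf4 does so on the ipsilateral side, and Srgn has PBBI rats 81 and 85 far above the rest.

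Samsn1 (ENSRNOG00000030930) was higher in PBBI than in sham cortex on both sides of the brain. In ipsilateral PBBI cortex it measured 6.43 CPM in rat 81, 3.36 in rat 83, 2.49 in rat 85, 3.05 in rat 88, 3.31 in rat 90 and 7.08 in rat 96. In ipsilateral sham cortex it measured 0.705 CPM in rat 82, 1.27 in rat 84, 0.444 in rat 86, 0.446 in rat 91 and 0.891 in rat 94. The groups did not overlap, and rats 81 and 96 stood well above the other PBBI rats. The means were 4.29 CPM ± 1.95 (SD, n = 6) and 0.752 CPM ± 0.347 (SD, n = 5), a ratio of 5.70, and the lowest PBBI rat was at 1.96 times the highest sham rat. The log2 fold change from edgeR was 2.51 (standard error, SE, 0.418). For comparison, 4.68% of the 16104 genes tested ipsilaterally passed an adjusted p of 0.05, and 3.4% had all 6 PBBI rats above all 5 sham rats. No reading is taken from these shares, because the same contrast chose the gene.

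On the contralateral side Samsn1 measured 1.24 CPM in rat 81, 1.17 in rat 83, 0.865 in rat 85, 0.744 in rat 88, 0.756 in rat 90 and 1.31 in rat 96. The contralateral sham levels were 0.391 CPM in rat 82, 0.493 in rat 84, 0.437 in rat 86, 0.553 in rat 91 and 0.342 in rat 94. Here too the groups did not overlap, although the distance was smaller: the lowest PBBI rat was at 1.35 times the highest sham rat. As counts, the PBBI libraries held 44 to 76 and the sham libraries 15 to 34. The means were 1.01 CPM ± 0.254 (SD, n = 6) and 0.443 CPM ± 0.0826 (SD, n = 5), a ratio of 2.29 and a log2 fold change of 1.18 (SE 0.281). No gene passed the adjusted threshold contralaterally with edgeR (0 of 15907, 0%, with 366 at an unadjusted p under 0.05), while DESeq2 passed 3 genes and limma voom 1. Full separation with PBBI on top was found in 15 genes, 0.0943% of those tested. Samsn1 was picked as one of the genes of smallest contralateral p, so its place among them is the choice itself. Its log2 fold change was between 1.10 and 1.28 when any 1 rat was left out, 1.10 with limma voom and sample quality weights, and 0.71 with DESeq2 and its normal prior, which shrinks fold changes towards 0.

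The contralateral PBBI level of Samsn1 lay close to the ipsilateral sham level. The ratio of those means was 1.35, and the ranges overlapped, with 1 of 6 contralateral PBBI libraries above every ipsilateral sham library. From low to high the groups ran from contralateral sham through ipsilateral sham and contralateral PBBI to ipsilateral PBBI. Neighbours in that order overlapped except for the last step, where the lowest ipsilateral PBBI library was at 1.91 times the highest contralateral one. Rats 81 and 96 had the highest Samsn1 on both sides.

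Within PBBI rats the ipsilateral level of Samsn1 was 2.86 to 5.42 times the contralateral level, higher in 6 of 6 rats, with a mean log2 difference of 1.97 ± 0.401 (SD). In all PBBI rats the ipsilateral library was above the contralateral one in 10.4% of the 15973 genes tested. Sham rats were mixed. The ratio was 1.80 in rat 82, 2.59 in rat 84 and 2.60 in rat 94, but 1.02 in rat 86 and 0.808 in rat 91. The sham ratio was above 1 in 4 of 5 rats, and the share of genes with that count was not taken. A ratio above 1 in all 5, which Samsn1 did not reach, was found in 1.64% of the 15747 genes tested. The sham log2 fold change of 0.76 (SE 0.355) did not pass (adjusted p = 1.00 from edgeR, two-sided exact sign-flip test p = 0.188, with 0.0625 the smallest that 5 rats allow). The sham libraries of both sides, which make up this comparison, had a part in the choice of Samsn1. Between sham hemispheres 0 of 15747 genes (0%) passed with edgeR, with 47 at an unadjusted p under 0.05. The injury effect on Samsn1 was larger ipsilaterally than contralaterally by 1.32 on the log2 scale (SE 0.461).

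Rassf4 (ENSRNOG00000013526) was higher in PBBI than in sham cortex on the injured side, with a wide spread among injured rats. It measured 19.6 CPM in rat 81, 19.5 in rat 83, 45.1 in rat 85, 64.3 in rat 88, 45.2 in rat 90 and 28.9 in rat 96. Ipsilateral sham levels were 8.72 CPM in rat 82, 11.2 in rat 84, 10.5 in rat 86, 9.18 in rat 91 and 12.6 in rat 94. All PBBI rats lay above all sham rats, and the lowest was at 1.55 times the highest sham level. Such separation was found in 3.4% of the 16104 genes tested ipsilaterally. The means were 37.1 CPM ± 17.6 (SD, n = 6) and 10.4 CPM ± 1.56 (SD, n = 5), a ratio of 3.56 and a log2 fold change of 1.83 (SE 0.329). The coefficient of variation was 47.5% in PBBI and 14.9% in sham. This contrast chose the gene, so no test is given and no reading is taken from the separation.

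Contralaterally, where it was not chosen, Rassf4 measured 17.1 CPM in PBBI rat 81, 10.9 in rat 83, 10.8 in rat 85, 22.5 in rat 88, 11.4 in rat 90 and 8.53 in rat 96. Contralateral sham levels were 8.21 CPM in rat 82, 10.6 in rat 84, 9.59 in rat 86, 8.66 in rat 91 and 13.5 in rat 94. Only rats 81 and 88 lay above every sham rat, and the other 4 PBBI rats lay within the sham range. The means were 13.5 CPM ± 5.22 (SD, n = 6) and 10.1 CPM ± 2.10 (SD, n = 5). The log2 fold change of 0.41 (SE 0.260) did not pass (adjusted p = 1.00 from edgeR, two-sided exact permutation test p = 0.201). Without PBBI rat 88 it was 0.21. Within PBBI rats the ipsilateral level was 1.15 to 4.16 times the contralateral one, lowest in rat 81. Sham hemispheres had nearly equal levels of Rassf4, with ratios between 0.934 and 1.09 and a log2 fold change of 0.04 (SE 0.206, adjusted p = 1.00 from edgeR, two-sided exact sign-flip test p = 0.313). The ipsilateral sham libraries in that comparison had a part in the choice of Rassf4. The injury effect on Rassf4 was larger ipsilaterally by 1.42 on the log2 scale (SE 0.413).

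Srgn (ENSRNOG00000000394), which none of the injury comparisons chose, was high in some injured cortices and at sham level in others. In ipsilateral PBBI cortex it measured 72.4 CPM in rat 81, 18.7 in rat 83, 49.2 in rat 85, 30.4 in rat 88, 22.8 in rat 90 and 20.2 in rat 96. The ipsilateral sham levels were 11.5 CPM in rat 82, 24.5 in rat 84, 25.1 in rat 86, 12.2 in rat 91 and 19.2 in rat 94. Rats 81, 85 and 88 lay above every sham rat, and the other 3 PBBI rats lay within the sham range. The means were 35.6 CPM ± 21.2 (SD, n = 6) and 18.5 CPM ± 6.49 (SD, n = 5), a ratio of 1.93. The log2 fold change of 0.95 (SE 0.398) did not pass (adjusted p = 0.237 from edgeR, two-sided exact permutation test p = 0.0909, and p = 0.167 without rat 85). Without rat 81 it was 0.62.

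Contralaterally, Srgn measured 19.3 CPM in PBBI rat 81, 18.1 in rat 83, 24.2 in rat 85, 17.4 in rat 88, 12.2 in rat 90 and 14.8 in rat 96. Sham levels were 14.7 CPM in rat 82, 24.0 in rat 84, 19.2 in rat 86, 12.7 in rat 91 and 19.1 in rat 94. The ranges overlapped almost entirely. These contralateral libraries had a part in the choice of Srgn, by its association with sleep in a model that included injury. The means were 17.7 CPM ± 4.11 (SD, n = 6) and 17.9 CPM ± 4.40 (SD, n = 5), with a log2 fold change of -0.03 (SE 0.215, adjusted p = 1.00 from edgeR, two-sided exact permutation test p = 0.931).

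The sides were next compared within rats. The contralateral libraries in these comparisons had a part in the choice of Srgn, by its association with sleep. The ipsilateral level of Srgn was 1.03 to 3.75 times the contralateral level in PBBI rats, higher in 6 of 6. A two-sided exact sign-flip test gave p = 0.0313, the smallest that 6 rats allow. Of the 15973 genes tested, 10.4% were higher ipsilaterally in every PBBI rat. The log2 fold change was 1.04 (SE 0.342, adjusted p = 0.117 from edgeR), and it passed once the rat was entered as a block, at 0.87 (SE 0.226, adjusted p = 0.0464 from edgeR). The same test passed 3.56% of genes without the block and 10.3% with it. Among sham rats the ratio was between 0.784 and 1.31, higher in 3 of 5, with a log2 fold change of 0.05 (SE 0.281, two-sided exact sign-flip test p = 0.938). The within-rat log2 difference was 0.85 ± 0.627 (SD, n = 6) among PBBI rats and 0.00 ± 0.264 (SD, n = 5) among sham rats (two-sided exact permutation test p = 0.0152 before any adjustment). Tested across all genes, this difference between the sides in the injury effect on Srgn did not pass, at 0.97 (SE 0.459, adjusted p = 0.484 from edgeR) or, with the block, at 0.85 (SE 0.287, adjusted p = 0.116). Of the 16587 genes in that test 0.326% passed, and 4.27% with the block.

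**Figure D2:**
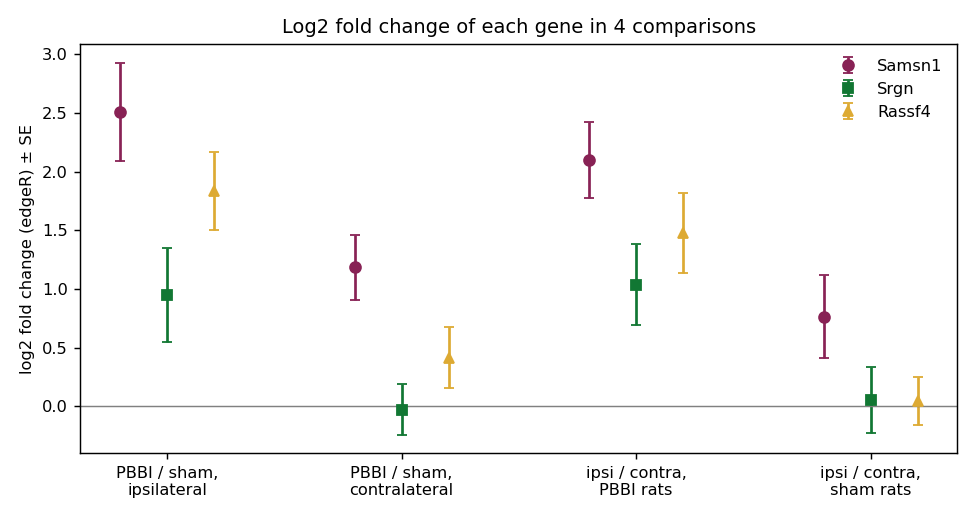
Log2 fold change from edgeR ± SE (vertical axis) of Samsn1, Srgn and Rassf4 in 4 comparisons (horizontal axis), PBBI against sham on each side and ipsilateral against contralateral cortex in PBBI and in sham rats. Samsn1 is the highest of the 3 genes in each comparison, and contralaterally Srgn is at -0.03 and Rassf4 at 0.41 against 1.18 for Samsn1.

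**Figure D3:**
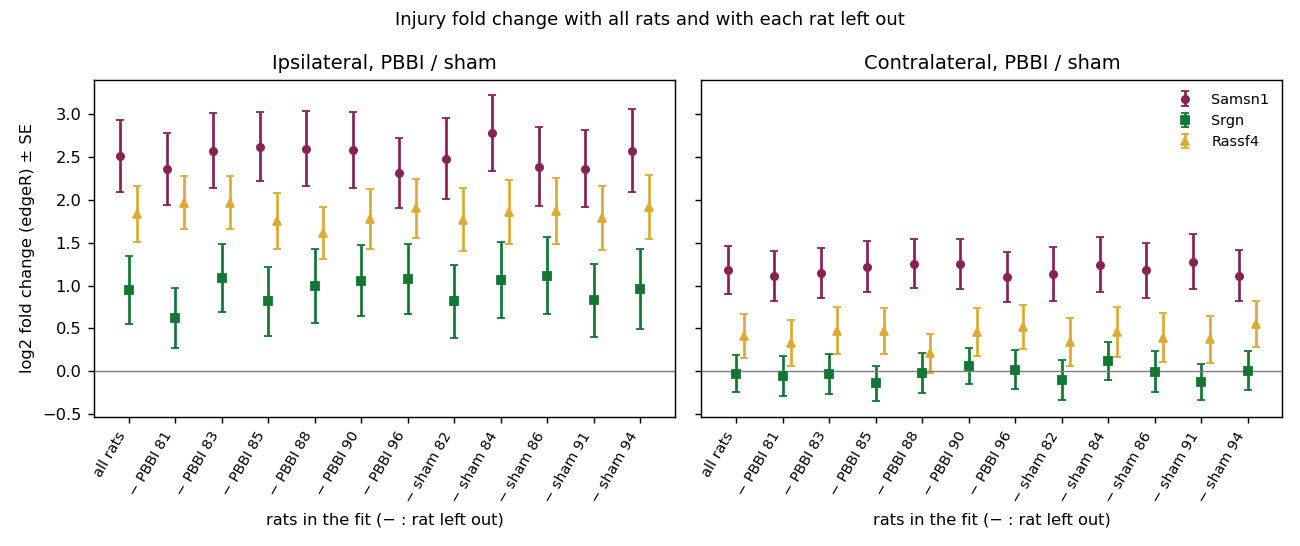
Log2 fold change of PBBI against sham ± SE (vertical axis) with all rats and with each rat left out (horizontal axis), on each side. Ipsilaterally Srgn falls to 0.62 without PBBI rat 81, whereas Samsn1 stays between 2.31 and 2.78 and Rassf4 between 1.61 and 1.97. Contralaterally Samsn1 stays between 1.10 and 1.28 and Srgn falls on either side of 0.

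The 3 genes were high in different rats. Ipsilaterally Samsn1 was highest in rats 96 and 81, Rassf4 in rats 88, 90 and 85, and Srgn in rats 81 and 85. Correlations of the deviations of log2 CPM from the group means, over 22 libraries that include both sides of each rat, were 0.13 for Samsn1 with Srgn, -0.35 for Samsn1 with Rassf4 and 0.12 for Srgn with Rassf4. The pooled SD of log2 CPM within groups was 0.49 for Samsn1, 0.54 for Srgn and 0.49 for Rassf4.

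Markers of several leukocyte types were higher in PBBI on the ipsilateral side. Most names come from genes the study called on these samples, so a call among markers is no rare event. Of 1684 named genes tested, 43.9% passed and 1633 had an unadjusted p under 0.05 with edgeR, while 4.68% of all genes passed. All 6 leukocyte markers (Ptprc, Spi1, Itgam, Itgb2, Itgal and Cd14) passed with higher levels in PBBI, and their summed level was between 51.1 and 272 CPM in ipsilateral PBBI cortex and between 17.2 and 30.3 CPM in sham. Of 7 monocyte and macrophage markers, 6 were tested and 4 passed, with sums of 241 to 1104 CPM against 99.0 to 236 CPM, and Ccr2 was at no more than 2 counts in any library outside ipsilateral PBBI cortex. Of 8 microglia markers, 4 could be named and 3 were tested. C1qb and C1qc, complement subunits, passed with higher levels, Tmem119 had a log2 fold change of -0.92 (adjusted p = 0.0799 from edgeR), and the sums were 163 to 364 CPM against 84.4 to 181 CPM. Siglech was at 23 counts or fewer in every library. Of 8 neutrophil markers 7 could be named, and 0 of the 4 tested passed with all rats (2 without rat 85, all 4 at an unadjusted p under 0.05 with edgeR). Their sums ran from 11.1 to 192 CPM in PBBI and from 5.12 to 51.1 CPM in sham. Elane was at 0 counts in every ipsilateral sham library and at 0 to 31 counts in ipsilateral PBBI libraries. Of 6 T cell markers 3 were tested and 1 passed, with sums of 2.87 to 10.5 CPM against 0.255 to 2.14 CPM. Of 5 B cell markers 1 was tested, Fcrl1. It was lower in PBBI at a log2 fold change of -1.61 but did not pass (adjusted p = 0.148, unadjusted p = 0.0147, both from edgeR). The B cell sums were at most 1.39 CPM in every library, with Pax5 at 0 counts in every ipsilateral sham library. Neuron markers had sums of 796 to 1581 CPM in ipsilateral PBBI and 1374 to 2108 CPM in sham, with 0 of 5 past the threshold (2 without rat 85, all 5 at an unadjusted p under 0.05 with edgeR). Among other cells of the tissue, 1 of 4 astrocyte markers was higher and 3 were lower past the threshold. Of 3 oligodendrocyte markers, Mal was lower past the threshold, while Opalin at a log2 fold change of -0.94 and Tf at 0.92 did not pass. Of 2 endothelial markers, Vwf was higher past the threshold, while Cd34 at -1.16 did not pass.

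The sums also differed between single rats. Monocyte and macrophage markers summed to 1104 CPM in rat 81 and 951 CPM in rat 96, the rats of highest Samsn1, and to 241 to 584 CPM in the others. Microglia markers summed to 364 CPM in rat 85, 294 in rat 88 and 289 in rat 90, the rats of highest Rassf4, and to 163, 234 and 218 CPM in rats 81, 83 and 96. Neutrophil markers summed to 192 CPM in rat 81 and 165 CPM in rat 85, the rats of highest Srgn, but also to 116 CPM in rat 96, where Srgn was at sham level. Leukocyte markers were in another order than each of the 3 genes, with 272 CPM in rat 81, 210 in rat 90, 140 in rat 88, 134 in rat 96, 73.7 in rat 83 and 51.1 in rat 85. Other lists were highest in the same rats. T cell markers were also highest in rats 96 and 81, at 10.5 and 9.93 CPM. Oligodendrocyte markers were also highest in rats 90, 88 and 85, at 1456, 1131 and 979 CPM. These pairings were picked out after the values were seen, and their part in the levels of the 3 genes was not tested.

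Contralaterally, of the 3 genes Samsn1 alone separated the groups. Several marker genes were also higher in PBBI there, although the sums of each list overlapped between groups. With edgeR 0 markers passed the adjusted threshold. Of 1586 named genes tested contralaterally, 1016 were higher in PBBI and 159 had an unadjusted p under 0.05 with edgeR. Leukocyte markers summed to between 21.9 and 72.4 CPM in PBBI and between 19.0 and 36.6 CPM in sham, with all 6 higher and 2 at an unadjusted p under 0.05 from edgeR (Cd14 with a log2 fold change of 1.48 and Itgal with 1.23). Rats 81 and 88, the PBBI rats with Rassf4 above sham, had the highest leukocyte sums at 72.4 and 58.9 CPM. Among PBBI rats they also had the highest sums of astrocyte (6759 and 5908 CPM), oligodendrocyte (1104 and 1485 CPM) and T cell markers (1.47 and 1.67 CPM). The match with Rassf4 was thus not particular to leukocyte markers, was picked out after the values were seen and was not tested. Of the microglia markers all 3 tested were higher and 2 had an unadjusted p under 0.05 (C1qc at 0.60 and C1qb at 0.49), with sums between 144 and 204 CPM in PBBI and between 101 and 174 CPM in sham. Of the monocyte and macrophage markers all 6 tested were higher and 3 had an unadjusted p under 0.05, among them Msr1, a scavenger receptor, at 1.83 and Plac8 at 1.35. Their sums, to which Lyz2 gave the most, were 131 to 242 CPM against 118 to 171 CPM. Gfap, the filament protein of reactive astrocytes, had a log2 fold change of 1.57 with 5 of 6 PBBI rats higher than all sham rats. Neutrophil markers summed to 6.57 to 55.3 CPM against 5.41 to 45.0 CPM. T cell markers summed to at most 1.67 CPM, and B cell markers to at most 1.02 CPM. The part of these cells in the contralateral Samsn1 level was not tested.

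**Figure D4:**
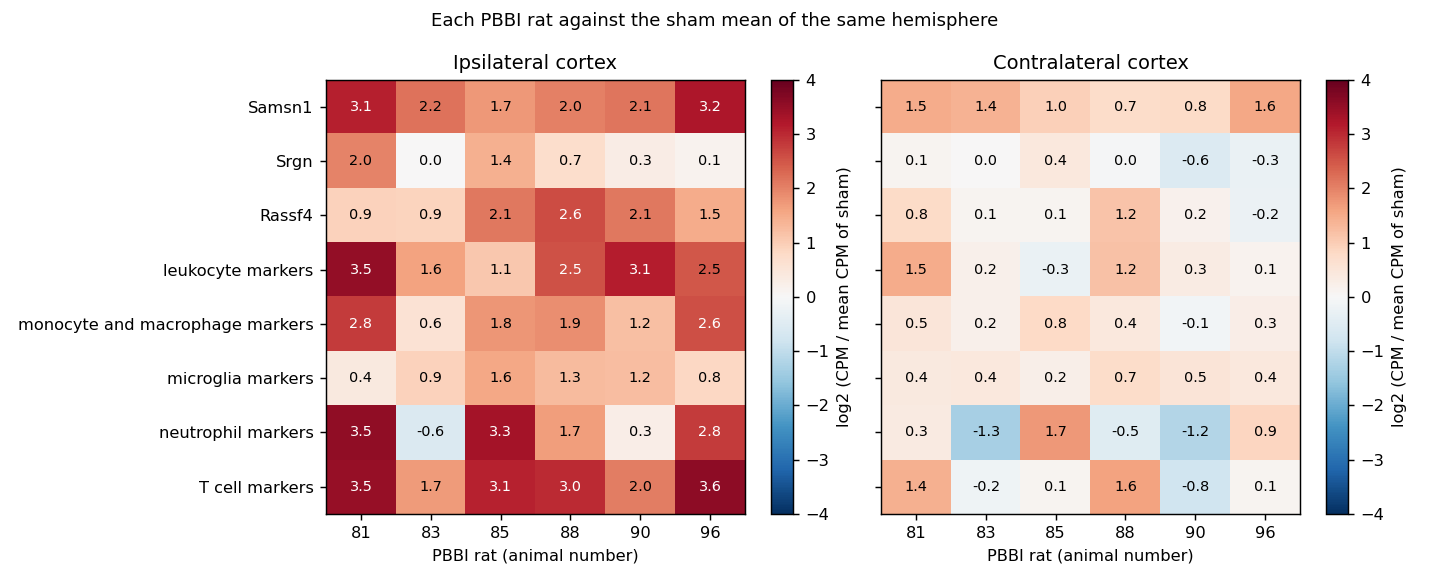
Log2 of the ratio between the CPM of each PBBI rat (horizontal axis, animal number) and the mean CPM of sham rats on the same side, for the 3 genes and for the summed CPM of 5 marker lists, with red above and blue below sham. Contralaterally the whole Samsn1 row is above sham, as is the microglia row, while monocyte and macrophage markers are below sham in rat 90, leukocyte markers in rat 85 and neutrophil markers in rats 83, 88 and 90.

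Genes that varied most like each of the 3 across libraries were sought among 1720 named genes, by the correlation of deviations from the group means over 22 libraries. For Samsn1 these were Il18 (r = 0.82, rho = 0.81), an inflammatory cytokine, Lilrb4 (r = 0.78), an inhibitory leukocyte receptor, Cybb (r = 0.77), the catalytic subunit of the phagocyte NADPH oxidase, Ctsc (r = 0.77), a lysosomal protease, and Cd36 (r = 0.76), a scavenger receptor. For Srgn they were Ier3 (r = 0.89, rho = 0.89), an immediate early gene, Slfn2 (r = 0.88), a schlafen gene of lymphoid and myeloid cells, Rgs1 (r = 0.86), a regulator of G protein signaling, Gadd45g (r = 0.84), a stress-induced gene, and AABR07013701.2 (r = 0.83). For Rassf4 they were Cnn3 (r = 0.87, rho = 0.87), an actin-binding calponin, Glipr2 (r = 0.82), C1qb (r = 0.80), Carhsp1 (r = 0.79), an RNA-binding protein, and Slc39a1 (r = 0.76), a zinc transporter. No gene was in more than 1 of these sets of 5. Without the 2 libraries farthest from the median, r was 0.76 for Il18, 0.84 for Ier3 and 0.83 for Cnn3, and without rat 85 it was 0.81, 0.88 and 0.87. Libraries share rats and sides, and the names come from genes the study called, so these values describe the libraries only.

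Lists of related genes were counted ipsilaterally, under the limit that most names come from genes the study called on these samples: of 1684 named genes tested, 43.9% passed, with a median log2 fold change of 1.25 against -0.02 for all genes. Without rat 85, 72.5% of 1659 named genes passed, and 13.7% of all genes. Of 32 leukocyte kinases and adaptors, the kind of protein Samsn1 belongs to, 25 could be named and tested, and 17 were higher and 0 lower past the threshold, with a median of 1.47, or 68% of the list (without rat 85, 22 higher, 88%, and a median of 1.59). The highest in level were Tyrobp and Fcer1g, adaptors of immune receptors with an ITAM motif. Fcer1g rose from 20.3 CPM ± 7.12 (SD, n = 5) to 53.8 CPM ± 21.5 (SD, n = 6), with a log2 fold change of 1.41 (adjusted p = 0.0333 from edgeR). Tyrobp had 157 CPM ± 136 in PBBI and 51.5 CPM ± 32.6 in sham, and its log2 fold change of 1.62 did not pass (adjusted p = 0.158 from edgeR). Among those that passed were Lyn, a Src family kinase, at 1.38, Lcp2, a cytosolic adaptor, at 1.55, and Skap2, also an adaptor, at 1.03. Contralaterally 24 of the 25 were higher and 1 was lower, with a median of 0.36 against 0.12 for named genes, and 0 passed with edgeR, with 0 at an unadjusted p under 0.05.

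For serglycin, 17 genes of its cargo and its receptor were listed, of which 5 could be named and 4 tested ipsilaterally. Past the threshold 3 were higher, 75%, against 43.9% of named genes, and without rat 85 all 4 were, against 72.5%. With 4 genes no reading is taken from these shares. Cd44, a receptor for hyaluronan that also binds serglycin, rose from 10.7 CPM ± 2.35 (SD, n = 5) to 129.3 CPM ± 75.8 (SD, n = 6), with a log2 fold change of 3.59 (SE 0.481, adjusted p = 0.00243 from edgeR). Mmp9, a secreted protease, rose by 2.55 and Ccl4, a chemokine, by 3.62 on the log2 scale, while Lyz2, lysozyme, had 418 CPM ± 250 against 136 CPM ± 54.8 and did not pass (adjusted p = 0.0677 from edgeR), although it did without rat 85. Contralaterally 0 of 3 passed, with Cd44 at 0.78 and an unadjusted p of 0.0240 from edgeR across all genes.

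For Rassf4, 31 genes of Ras association, Hippo signaling and Ras control were listed and 8 could be named and tested. Rras, a small GTPase, at 1.29, and Rin3, a protein with a Ras association domain, at 1.83, rose ipsilaterally, and 0 fell. These 2 of 8, 25%, were a smaller share than the 43.9% of named genes, and without rat 85, where 72.5% of named genes passed, 7 were higher and 1 was lower past the threshold. The 2 highest in level did not pass with all rats: Rasgrp2, an exchange factor for Rap GTPases, at 13.3 CPM ± 12.2 in PBBI and 27.0 CPM ± 5.96 in sham, and Cyr61, a target of the Hippo effectors, at 40.8 CPM ± 35.6 and 5.93 CPM ± 5.50 (adjusted p = 0.352 and 0.0677 from edgeR). Contralaterally 0 of 8 passed with edgeR, 1 had an unadjusted p under 0.05, and the median was 0.29. Other members of the family to which Rassf4 belongs had no identifier that could be named and were not analysed here.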

How the data were processed

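Total RNA from both cortical hemispheres of 11 rats was depleted of ribosomal RNA and sequenced by the authors, who aligned reads with STAR 2.4.2a to Rnor 6.0 and counted them with featureCounts 1.4.3-p1. The deposited values are raw counts per gene, and the handling of strand and of reads that align to several places is not given in the sources used here. Even numbers made up 60.8% to 69.6% of the low counts (1 to 19) in a library, and the cause was not tested. Counting error is not the only error, since no molecular identifiers are named.

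Gene symbols were paired with 1822 of 32545 identifiers, of which 23572 had counts, through the supplementary tables of the study, and 2 symbols fell on more than 1 identifier. The genes, lists and tests were chosen with earlier results of these data known. Genes other than the 3 were named as the 5 most similar in variation and the 2 of highest level per list, and those beyond that rule (marker genes, Lyn, Lcp2, Skap2, Mmp9, Ccl4, Rras and Rin3) were chosen after their values were seen.

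Groups came from the sample labels. Each comparison was fitted across all genes by quasi-likelihood in edgeR 4.0.16 under R 4.3.3 (TMM, filterByExpr, Benjamini-Hochberg adjustment at 0.05). The standard error is the log2 fold change over the square root of F. CPM for display were normalized over all 22 libraries, and log2 CPM used a prior count of 2. Exact tests ran over 462 relabelings of rats or over sign flips within rats, on log2 CPM. Tests were tried on simulated data. Both libraries of a rat carry its number. Their deviations from the group means correlated at 0.246 to 0.758 in all 11 rats, so the rat was also entered as a block. Alternatives were RLE factors, DESeq2 1.42.0 without and with a normal prior, limma 3.58.1 voom with quality weights, other filters, 1 fit of all libraries and leaving out each rat. Counts without rat 85 and the likeness without it were added after seeing the data. Surgeries were done in weekly groups, a grouping that was not used here. Sleep durations were not used here, and no coordinates of Rnor 6.0 are given.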

Additional observations from a re-analysis of the deposited data

How the results depend on the processing

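The ipsilateral log2 fold changes were between 2.20 and 2.78 for Samsn1, 1.61 and 1.97 for Rassf4 and 0.56 and 1.12 for Srgn over 18 alternatives, and Srgn passed in 0 of them (adjusted p between 0.0723 and 0.522). Contralaterally they were between 0.71 and 1.28 for Samsn1, 0.21 and 0.55 for Rassf4 and -0.36 and 0.12 for Srgn. Leaving out each rat gave -0.14 to 0.12 for Srgn contralaterally and -0.069 to 0.12 between sham hemispheres, which crosses 0. The call that changed was Srgn between the hemispheres of PBBI rats. It passed with DESeq2 at 1.05 (adjusted p = 0.0392), with the DESeq2 prior at 0.92 (adjusted p = 0.0393), with voom at 0.88 (adjusted p = 0.0246) and with the replicate block at 0.87 (adjusted p = 0.0464), and in 0 of the fits without 1 rat (0.74 to 1.17). The block, which pairs both sides of a rat, changed no other call among the comparisons tested here. The difference of the injury effect between sides for Rassf4, given without a test, was 1.42 without and 1.35 with the block. Numbers of genes called moved more. Ipsilaterally there were 753, against 1639 with DESeq2, 1628 with its prior, 5014 with voom, 1655 with all libraries in 1 fit and 316 to 2186 without 1 rat. Contralaterally there were 3 with DESeq2, 1 with voom and 0 to 1 without 1 rat. For the difference of the injury effect between sides there were 54, against 353 with DESeq2, 478 with its prior, 1663 with voom, 708 with the block and 0 to 255 without 1 rat. Between the hemispheres of PBBI rats there were 568, against 1535 with DESeq2, 1531 with its prior, 3695 with voom, 1646 with the block and 1 (without rat 88) to 1149 (without rat 85) without 1 rat. The causes were not tested. The contralateral sham libraries held 15 to 34 counts of Samsn1, and its lowest contralateral value, 0.71, came with the DESeq2 prior.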
